A study of Mus musculus with 6 samples.

Results

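Histone genes were read in the livers of Nogo knockout mice and of their wild-type littermates. They were taken by name, as every gene whose symbol starts with Hist1h to Hist4h, H2af, H3f3 or H1f, which gave 91 of the 54232 genes in the table of counts. Of these, 69 carry the names of the replication-dependent clusters, 17 carry the names of histone variants, and 5 are pseudogenes or an antisense gene by name (H3f3a-ps1, H3f3a-ps2, H3f3aos, Hist3h2bb-ps and H2af-ps). H3f3c and H2afy3, kept with the variants by their names, are annotated as processed pseudogenes. The replication-dependent names comprise 6 H1, 20 H2A, 18 H2B, 12 H3 and 13 H4 genes, and the variants comprise 4 H1, 10 H2A and 3 H3 genes.

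The study sequenced liver RNA of 8-week-old mice on a normal chow diet, to look at insulin signalling without Nogo. Nogo is the product of Rtn4, a reticulon of the endoplasmic reticulum. The knockout group is Nogo-/- (labelled NC, libraries 1, 2 and 4) and the control group is wild type (labelled CC, libraries 2, 4 and 11), with 3 mice in each. The sources used here do not give the allele, the strain or the sex. Total RNA went into libraries by a SMARTer mRNA-Seq kit, as the labels' protocols say, and whether RNA was selected by its poly(A) tail is not stated in them.

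Histones are the proteins around which DNA is wrapped, with H2A, H2B, H3 and H4 in the core of the nucleosome and H1 on the linker DNA. Replication-dependent histone genes lie in clusters, have no introns as a rule, and are transcribed mainly in S phase. Their mRNAs are the known exception among animal mRNAs in ending in a conserved stem-loop in place of a poly(A) tail, although some of these genes are known to give polyadenylated transcripts in cells that have stopped dividing. Variant genes such as those of H3.3, H2A.Z and macroH2A are expressed throughout the cell cycle and give ordinary polyadenylated mRNAs. Adult liver is mostly made of hepatocytes that rarely divide.

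The stem-loop was searched for in the annotated transcripts as the known 16-base histone 3' stem-loop consensus, within the 100 bases after the stop codon on the sense strand. It was found in 46 of the 69 replication-dependent genes. Among all protein-coding genes with at least that much annotated sequence after the stop, 28 of 19934 held it (0.14%), and 27 of those 28 were members. The sequences below show it, in capitals, in the member of highest mean level among the linker, H2A, H3 and H4 genes of the clusters, and in H2afx, the only variant with a match and known for giving both mRNA forms. They were read from GENCODE release M21 transcripts (GRCm38).
Hist1h1c: ccaaaaGGCTCTTTTCAGAGCCaccactcc
Hist3h2a: accaaaGGCTCTTTTCAGAGCCacccacaa
Hist2h3c2: cacaaaGGCTCTTTTCAGAGCCaccacagc
Hist1h4h: accaaaGGCCCTTTTCAGGGCCgcccacat
H2afx: cacaaaGGCCCTTTTAAGGGCCaccacctc
The loop letters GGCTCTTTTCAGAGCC were the most frequent kind, in 26 genes, and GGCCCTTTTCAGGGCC followed in 7 genes, all of them H4. In 19 replication-dependent genes no loop was found and fewer than 100 annotated bases followed a stop codon. They include Hist1h2al and Hist1h2aj, annotated as pseudogenes without a stop codon. These 19 genes are not analysed here for the loop. The remaining 4, Hist1h2bc, Hist2h2be, Hist1h2bq and Hist1h2br, had a longer annotated transcript without a match. They held 14450 of the 19949 counts of the replication-dependent genes, 14214 of them from Hist1h2bc.

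Libraries held 17568223 to 20902369 counts, and 10888 to 20096 of these were histone counts. Levels are given as CPM, counts relative to TMM-scaled library totals, and 3 counts, taken as the floor, corresponded to 0.139 to 0.199 CPM. As a check of the labels, Rtn4 had 852, 991 and 1205 counts in the wild-type livers and 70, 153 and 78 counts in the knockout livers (log2 fold change of knockout over wild type -3.08 ± 0.26 SE, adjusted p = 0.00101, edgeR). The 3 knockout libraries stood apart from wild type and from each other in other ways. Mitochondrially encoded genes took 6.17% to 6.90% of each wild-type library, and 28.6%, 19.7% and 11.8% of knockout 1, 2 and 4. All 5 hepatocyte markers were detected in every library, summing to 79522 to 96078 CPM in wild type and 73029 to 102830 CPM in knockout. Of 13304 genes tested over the whole table, 2268 were called at an adjusted p under 0.05 (17%), 1165 higher in knockout (8.76%) and 1103 lower (8.29%). Below, rose and fell are said of called genes only.

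The replication-dependent genes had few or no counts in most cases, and none of those tested passed the threshold. Of the 69, 20 had no count in any library, 27 had 1 to 9 counts in all, and 22 had at least 10. Hist1h2bc, an H2B gene, and Hist1h1c, the gene of the linker histone H1.2, together held 92.0% of all their counts. Only 9 had enough counts to be tested, and 0 of these 9 were called against 17% of all tested genes. At an unadjusted p under 0.05 the number was 1, with DESeq2 1 was called and with limma-voom 0. The 9 passed a filter on low counts and are not a sample of the 69. Their median log2 fold change was 0.27, with 6 above 0 and 3 below, and that of all tested genes was 0.01.

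**Figure D1:**
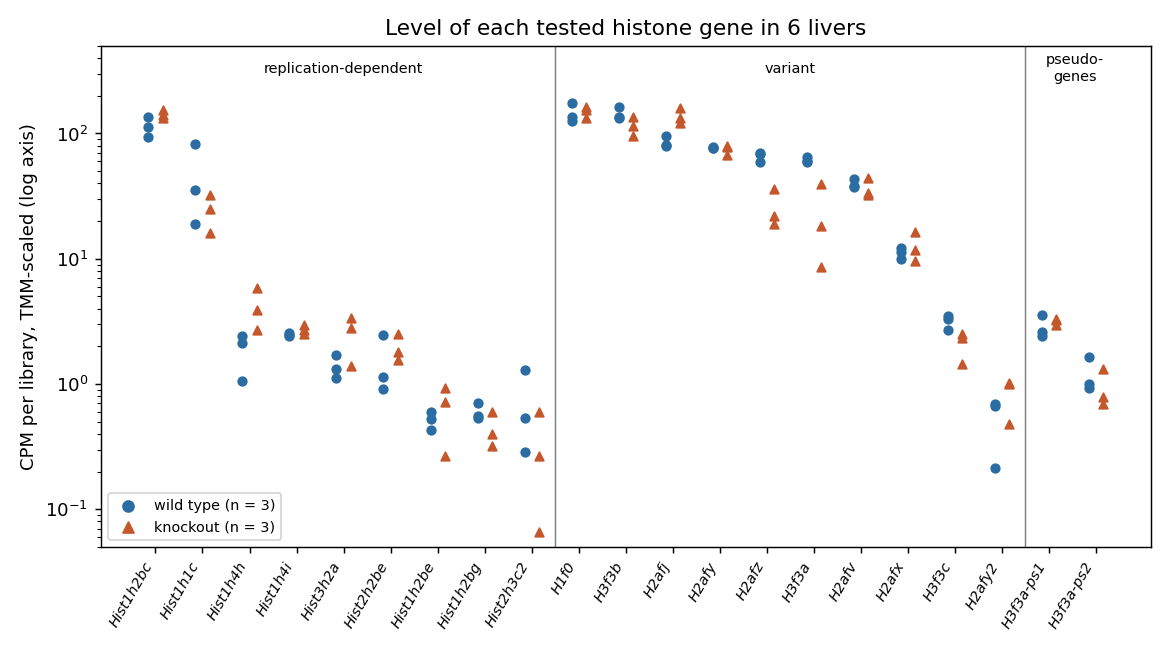
Level of each tested histone gene in CPM after TMM scaling (y axis, log scale) in the 3 wild-type (circles) and 3 knockout (triangles) libraries, 1 point per mouse, genes ordered by mean level within their class. Among replication-dependent genes Hist1h2bc and Hist1h1c lie far above the other 7, while 8 of the 10 tested variants lie near 10 CPM or above.

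Hist1h2bc (chromosome 13, 23684199 to 23692908, plus strand, GRCm38) is annotated as a protein-coding gene with 2 exons in 1 transcript of 1156 bases. The search found no loop in this spliced transcript and did not cover the intron. The level of Hist1h2bc was 113, 94.0 and 136 CPM in wild type 2, 4 and 11 and 141, 132 and 153 CPM in knockout 1, 2 and 4. The highest wild-type library lay above the lowest knockout library, and the log2 fold change was 0.32 ± 0.19 SE (adjusted p = 0.259). Per kilobase of annotated exon it was the most abundant histone mRNA in both genotypes, at 98.9 CPM per kb in wild type and 123 CPM per kb in knockout. Of its stretches of 50 bases, 30.6% also occur in another gene. Hist1h1c, on chromosome 13 from 23738808 to 23740367, is a single exon with the loop 24 bases after the stop and another 840 annotated bases beyond the loop. It stood at 35.7, 18.9 and 83.0 CPM in wild type and 16.2, 25.0 and 32.1 CPM in knockout. Wild type 11 was the highest of the 6 and wild type 4 the second lowest, so the groups overlapped (log2 fold change -0.91 ± 0.45 SE, adjusted p = 0.179). Without wild type 11 the difference was -0.17.

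The other 7 tested replication-dependent genes had means under 5 CPM in both genotypes. Hist1h4h, an H4 gene on chromosome 13 from 23531050 to 23531519, was the only one of the 9 whose groups did not overlap, where 38.9% of all tested genes had groups that did not. It had 2.42, 1.07 and 2.14 CPM in wild type and 5.83, 2.68 and 3.91 CPM in knockout (1.13 ± 0.39 SE, adjusted p = 0.0708). Knockout 1 was its highest library, and its counts ran from 20 to 88 in a library. This was the gene that DESeq2 called, with an adjusted p of 0.0324. Removing length and GC trends from each library lowered the difference to 0.62. Hist3h2a, an H2A gene of the small cluster 3, differed by 0.86 ± 0.39 SE (adjusted p = 0.151), with 1.33, 1.71 and 1.11 CPM in wild type and 3.38, 2.79 and 1.38 CPM in knockout. Knockout 4 lay among the wild-type values, and without it the adjusted p was 0.0332. An overlapping gene, Trim17, can share its reads. The remaining 5 had log2 fold changes between -1.15 (Hist2h3c2) and 0.38 (Hist2h2be), with adjusted p of 0.294 to 0.751. Hist1h4i, another H4 gene, stood at 2.42 to 2.56 CPM in wild type and 2.52 to 2.98 CPM in knockout.

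**Figure D2:**
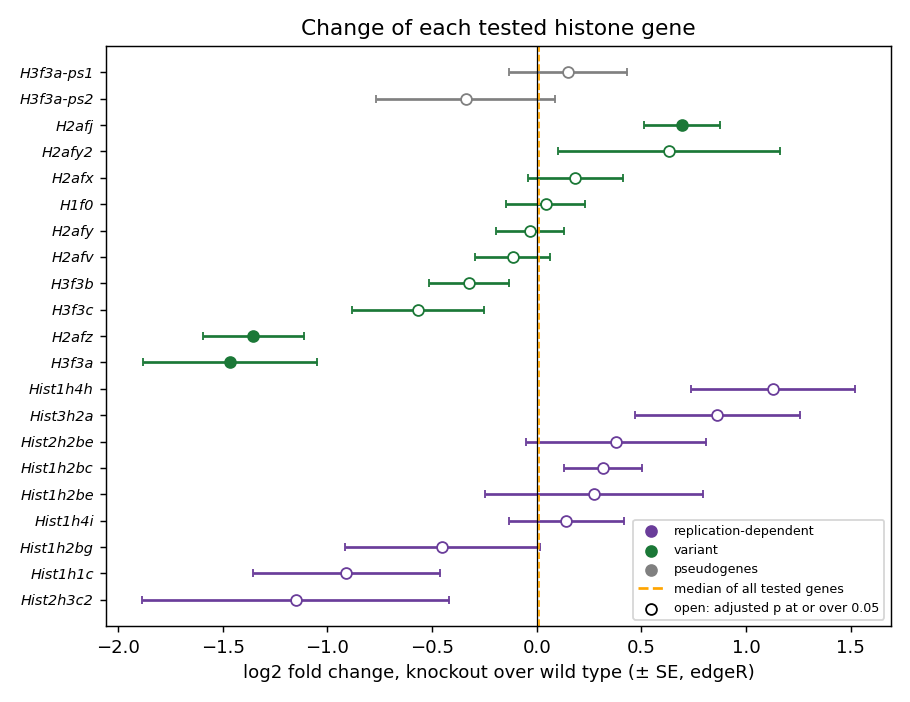
Log2 fold change of knockout over wild type from edgeR (x axis) for each of the 21 tested histone genes, with bars of 1 SE, filled where the adjusted p was under 0.05. Filled points are H2afj at 0.69, H2afz at -1.35 and H3f3a at -1.47, and no replication-dependent gene is filled. The dashed line is the median of all tested genes.

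The 60 untested replication-dependent genes summed to 71, 46 and 89 counts in the wild-type livers and 82, 62 and 53 in the knockout livers. Hist1h2ae had the most of these, 48 in all, and no library held more than 19 of any of them. Fewer cells in S phase and less of such RNA caught per cell cannot be told apart in bulk liver, here and in every level below. Cluster 1 held 97.4% of all replication-dependent counts, cluster 2 held 1.39%, cluster 3 held 1.09% and Hist4h4, the single gene of cluster 4, held 0.0852%. Across all 69 genes the summed level was 161, 123 and 234 CPM in wild type and 178, 172 and 200.1 CPM in knockout. The means of 173 ± 56.3 and 183 ± 14.8 CPM (SD, n = 3) differed by 0.09 on the log2 scale, and the wild-type spread covered the knockout range. Without Hist1h2bc the difference was -0.50, since Hist1h1c then weighed most. Without both of these genes the other 67 summed to 12.3, 10.1 and 14.7 CPM in wild type and 20.8, 14.7 and 14.7 CPM in knockout, a ratio of means of 1.35. Knockout 1 was highest there, and the lowest knockout libraries lay at the highest wild-type library.

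By protein type the sums differed in direction. H2B genes summed to 118 ± 22.1 CPM in wild type and 146 ± 10.6 CPM in knockout, H1 genes to 46.2 ± 33.7 and 24.8 ± 7.90 CPM, and H3 genes to 0.998 ± 0.555 and 0.621 ± 0.249 CPM (SD, n = 3), all with overlapping groups. H2A genes summed to 1.95, 2.19 and 1.76 CPM in wild type and 5.10, 3.49 and 1.99 CPM in knockout, where knockout 4 lay among the wild types. H4 genes summed to 6.22, 4.53 and 6.04 CPM in wild type and 10.6, 6.44 and 7.64 CPM in knockout, and this was the only type whose groups did not overlap. Of the 753 counts of the 13 H4 genes, 320 were those of Hist1h4h, the gene without overlap described above. Hist1h4i, the other tested H4 gene, held 289 and its groups overlapped. No test was made of a sum. With 3 against 3 mice an exact permutation test could not go below p = 0.1.

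Counts of replication-dependent genes were concentrated in genes with long annotated transcripts. In 24 genes the longest model runs more than 200 bases past the stop codon, and these held 97.4% of the counts. Another 30 genes, whose model runs 1 to 200 bases past the stop, held 2.56%. The last 15 had no annotated bases past a stop codon and held 0.0852%, and 11 of them had no count. Among the 15 are Hist1h2al and Hist1h2aj, which are annotated as pseudogenes and have no annotated stop codon. Without Hist1h2bc and Hist1h1c the same 3 groups held 67%, 32% and 1.06%. Median counts over the 6 libraries were 17.5, 2 and 0 per gene, and on the scale of level per length the medians were 0.0976, 0.0354 and 0 CPM per kb. The groups also differed in shared sequence, since a median of 23.4%, 59.9% and 82.8% of the 50-base words of a gene occurred in another gene, and reads from such words can be dropped or split in counting. The part of shared sequence in these counts was not tested. A model with the AATAAA or ATTAAA signal for polyadenylation in its last 50 bases was found for 16 of the 67 genes other than Hist1h2bc and Hist1h1c, and these 16 held 76.8% of the counts of the 67. The 16 also had longer exons than the 51 without a signal (median 1271 against 482 bases). A smaller part of their words was shared (median 30.2% against 64.8%). The parts of length and shared sequence in this contrast were not tested. Over all 69 genes the 17 with a signal, Hist1h1c among them, held 26.9% of the counts and the 52 without held 73.1%, since the model of Hist1h2bc has no such signal.

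**Figure D3:**
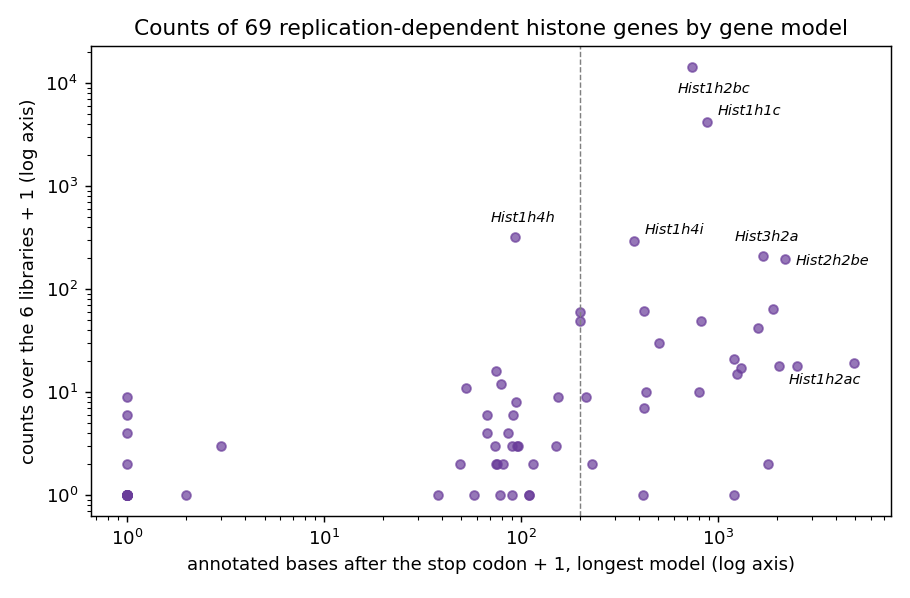
Each point is 1 of the 69 replication-dependent genes, with annotated bases after the stop codon in its longest model plus 1 (x axis, log scale) against its counts summed over the 6 libraries plus 1 (y axis, log scale); the dashed line marks 200 bases. Hist1h2bc and Hist1h1c lie at the top right, and most genes to the left of the line lie under 20 counts, with Hist1h4h above them.

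Core histone genes of the clusters often lie head to head, an H2A and an H2B gene sharing the sequence between their starts. Among the members 14 such pairs were found, with starts 173 to 306 bases apart, and 7 of the pairs had under 10 counts in total, 4 of them none. The pair of highest counts was very uneven, with 17 counts for Hist1h2ac and 14214 for Hist1h2bc, although the annotated model of Hist1h2ac also runs 2058 bases past its stop. Hist2h2ac and Hist2h2be were uneven in the same way, with 7 and 194 counts, and Hist1h2ae and Hist1h2bg were alike, with 48 and 59. The 2 most uneven pairs without a pseudogene are shown, by the sequence between the RefSeq start of the H2A gene and the GENCODE start of the H2B gene, from the RefSeq promoter table (GRCm38.p6) and read on the minus strand, so that the H2A gene starts after its right end and the H2B gene starts before its left end. Capitals mark the octamer ATGCAAAT, the CCAAT box and the TATA box, searched as ATGCAAAT, CCAAT and TATAAA on both strands, none of which overlap here.
chr13:23683960-23684198, Hist1h2ac and Hist1h2bc: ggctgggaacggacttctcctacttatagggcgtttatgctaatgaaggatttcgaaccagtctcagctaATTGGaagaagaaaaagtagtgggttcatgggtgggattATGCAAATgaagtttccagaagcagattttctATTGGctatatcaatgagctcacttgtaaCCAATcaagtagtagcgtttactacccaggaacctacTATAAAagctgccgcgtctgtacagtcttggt
chr3:96220881-96221118, Hist2h2ac and Hist2h2be: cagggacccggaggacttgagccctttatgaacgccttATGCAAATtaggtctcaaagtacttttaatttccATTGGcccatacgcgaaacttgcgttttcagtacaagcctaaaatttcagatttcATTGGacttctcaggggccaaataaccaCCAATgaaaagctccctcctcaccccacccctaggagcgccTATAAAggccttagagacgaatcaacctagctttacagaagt
Each sequence held 1 octamer, 3 CCAAT boxes and 1 TATA box by these letters. Over windows from 250 bases before to 50 bases after the start, the octamer occurred in 22.6% of the 62 replication-dependent promoters in the table, 6.67% of the 15 variant promoters and 1.74% of all 32851. CCAAT occurred in 85.5%, 66.7% and 37.4%, and TATAAA in 56.5%, 6.67% and 13.6%. The histone classes were counted with 1 promoter per gene, and the 32851 hold every promoter of full length, histone genes included. Windows of head-to-head genes can cover the same bases. A match is a description of the letters and not of a bound factor.

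The variants carried most of the histone counts and were the class with calls. Of the 17, 10 were tested, 3 were called (30%, against 17% of all tested genes) and 4 had groups that did not overlap, a share near the 38.9% of all tested genes. H3f3c, annotated as a processed pseudogene, is among the 10 and among the 4. H2afj rose, H2afz and H3f3a fell, and the median log2 fold change of the 10 was -0.07. The 7 that were not tested had 6 counts in all for H1fx, 1 for H2afb3 and none for H1fnt, H2afb1, H2afb2, H1foo and H2afy3, which include genes known from testis and oocytes.

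H2afz and H2afv each encode an H2A.Z, the variant placed beside the start sites of active genes, and H2afz fell while H2afv did not pass the test. H2afz (chromosome 3, 137864487 to 137866922, plus strand) stood at 59.7, 69.9 and 68.3 CPM in wild type and 19.0, 22.1 and 36.2 CPM in knockout. All knockout libraries lay below all wild types, with knockout 4 the nearest to them (log2 fold change -1.35 ± 0.24 SE, adjusted p = 0.00831). H2afv stood at 38.4, 43.6 and 37.6 CPM in wild type and 32.6, 33.5 and 44.3 CPM in knockout, with overlapping groups (-0.12 ± 0.18 SE, adjusted p = 0.685). Of the counts of the pair, H2afz made up 60.9%, 61.6% and 64.5% in the wild-type livers and 36.8%, 39.8% and 45.0% in the knockout livers, without overlap. The summed level of the pair was 106 ± 7.73 CPM in wild type and 62.6 ± 15.7 CPM in knockout (SD, n = 3), without overlap. Of the 50-base words of H2afz, 35.4% occur in another gene, and of H2afv none.

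H3f3a and H3f3b encode the same protein, H3.3, which is deposited outside of replication. H3f3a (chromosome 1, 180800832 to 180813943, minus strand) stood at 59.1, 60.6 and 64.8 CPM in wild type and 8.61, 18.3 and 39.8 CPM in knockout. The wild types were within a narrow range and the knockouts were spread over a wide one below it, knockout 1 lowest and knockout 4 highest (-1.47 ± 0.41 SE, adjusted p = 0.0375). H3f3b, on chromosome 11, stood at 132, 136 and 163 CPM in wild type and 94.9, 115 and 134 CPM in knockout. Its highest knockout lay above its lowest wild type, and the difference of -0.32 ± 0.19 SE was not called (adjusted p = 0.254). Of the H3.3 counts, H3f3a held 30.9%, 30.9% and 28.4% in the wild-type livers and 8.32%, 13.8% and 22.9% in the knockout livers. Both genes together summed to 205 ± 20.0 CPM in wild type and 137 ± 35.5 CPM in knockout (SD, n = 3), without overlap.

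Several intronless copies share sequence with H3f3a. H3f3c, on chromosome 2 and annotated as a processed pseudogene, was at 2.69 to 3.47 CPM in wild type and 1.46 to 2.52 CPM in knockout (-0.57 ± 0.31 SE, adjusted p = 0.228), and 73.8% of its words occur elsewhere. The pseudogenes H3f3a-ps1 and H3f3a-ps2 differed by 0.15 and -0.34 and were not called. The summed counts of H3f3c and these pseudogenes equalled 11.7%, 12.4% and 11.1% of the H3f3a counts in the wild-type livers and 64.6%, 35.5% and 16.6% in the knockout livers. The antisense gene H3f3aos had 12 counts in all, Hist3h2bb-ps had 2 and H2af-ps had none. H3f3a itself shares 27.1% of its words with other genes and overlaps Gm17275 and H3f3aos, so reads of these genes cannot be told apart without strand.

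H2afj (chromosome 6, 136808244 to 136810074, plus strand) encodes H2A.J. It stood at 81.0, 79.0 and 94.8 CPM in wild type and 159, 120.2 and 133 CPM in knockout. All 3 knockouts lay above all 3 wild types, knockout 1 highest (0.69 ± 0.18 SE, adjusted p = 0.0278). Of all variant H2A counts, H2afj took 30.3%, 28.1% and 32.8% in the wild-type livers and 52.8%, 47.0% and 43.0% in the knockout livers. The summed level of the 10 variant H2A genes, 279 ± 11.1 CPM in wild type and 289 ± 28.9 CPM in knockout (SD, n = 3), differed by 0.05 on the log2 scale. With library totals in place of TMM the median of all genes moved to -0.16, and H2afj was no longer called (0.50, adjusted p = 0.0898).

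The remaining variants did not pass the test. H2afy, which encodes macroH2A1, was nearly level at 76.5, 76.3 and 78.0 CPM in wild type and 80.0, 67.6 and 78.0 CPM in knockout (-0.03 ± 0.16 SE, adjusted p = 0.904). Its relative H2afy2, which encodes macroH2A2, was under 1.1 CPM in every library (0.63 ± 0.53 SE, adjusted p = 0.433). H2afx, whose protein is phosphorylated beside DNA breaks, stood at 11.3, 12.2 and 9.94 CPM in wild type and 9.67, 11.8 and 16.5 CPM in knockout (0.18 ± 0.23 SE, adjusted p = 0.601). H1f0, the linker histone H1.0 of differentiated cells, stood at 135, 127 and 175 CPM in wild type and 132, 163 and 155 CPM in knockout (0.04 ± 0.19 SE, adjusted p = 0.892). Per kilobase of exon, with the exons of all annotated transcripts of a gene joined, H1f0 came first among the variants in wild type. It had 70.8 CPM per kb, followed by H3f3b at 48.2 and H2afj at 46.4. The joined length is 2055 bases for H1f0, which has 1 transcript, and 2976 bases for H3f3b. The H3f3b transcript that ends with a polyadenylation signal has 1993 bases, so this order depends on the length taken. In knockout the order began with H2afj at 75.1 and H1f0 at 72.9 CPM per kb.

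**Figure D4:**
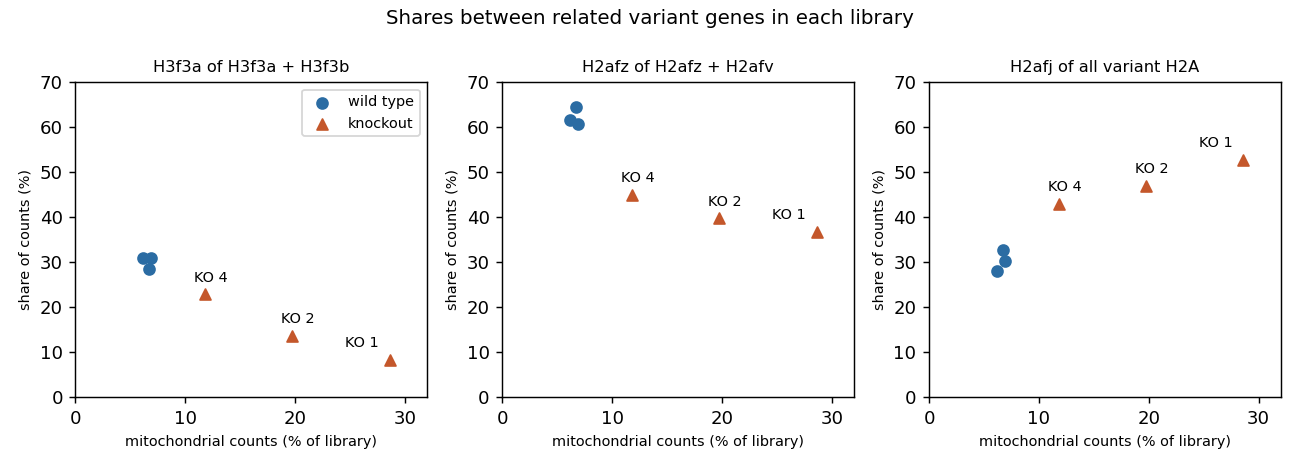
Share of H3f3a in the H3.3 counts, of H2afz in the H2A.Z counts and of H2afj in the variant H2A counts (y axes, percent) against the share of mitochondrially encoded counts in the library (x axes, percent), 1 point per mouse. In each panel the 3 wild types lie together, knockout 1 lies farthest from them and knockout 4 nearest. Across the knockouts the H3f3a and H2afz shares are lower, and the H2afj share higher, where the mitochondrial share is higher.

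H3f3a and H2afz were ordered by the mitochondrial share across the knockout libraries. Knockout 1, with 28.6% mitochondrial counts, had the lowest level of both genes, and knockout 4, with 11.8%, had the highest. H2afj was also farthest from wild type in knockout 1, but its level was nearest to wild type in knockout 2 and not in knockout 4. The H2afj share of variant H2A counts was ordered by the mitochondrial share, and its total includes H2afz. The mitochondrial share itself did not overlap between genotypes, so it and the genotype cannot be told apart with these 6 mice. With that share as a covariate none of the 13304 genes was called (1146 at an unadjusted p under 0.05), and the difference was 0.03 for H3f3a, -0.66 for H2afz and 0.47 for H2afj. When knockout 1 and 2 were left out, a choice made after the data had been seen in which knockout 4 is taken to vary like the others, the differences were -0.63, -0.86 and 0.65 (adjusted p = 0.158, 0.119 and 0.145). H2afz was called in each of the 6 fits that left out 1 library. H3f3a was called in 1 of them, the fit without knockout 4, with adjusted p of 0.0647 to 0.119 in the other 5. H2afj was called in 3 of them and lost its call without wild type 2, wild type 4 or knockout 1.

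Set against each other, the classes did not part by genotype. Replication-dependent genes took 21.1%, 16.7% and 25.1% of all histone counts in the wild-type livers and 24.7%, 23.5% and 23.7% in the knockout livers, a difference of 3.02 percentage points between the means with overlapping groups. Without Hist1h2bc the difference was -1.47 points. Variant genes summed to 597, 608 and 695 CPM in wild type and 538, 555 and 640.4 CPM in knockout, a log2 ratio of -0.13, also with overlap. Variant H3 was the variant type whose sums did not overlap, at 208 ± 19.6 CPM in wild type and 139 ± 35.9 CPM in knockout (SD, n = 3). Within the replication-dependent class the share of Hist1h2bc did not overlap either, at 70.2%, 76.4% and 58.2% in the wild-type livers and 79.3%, 76.9% and 76.6% in the knockout livers, with wild type 4 close below knockout 4.

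**Figure D5:**
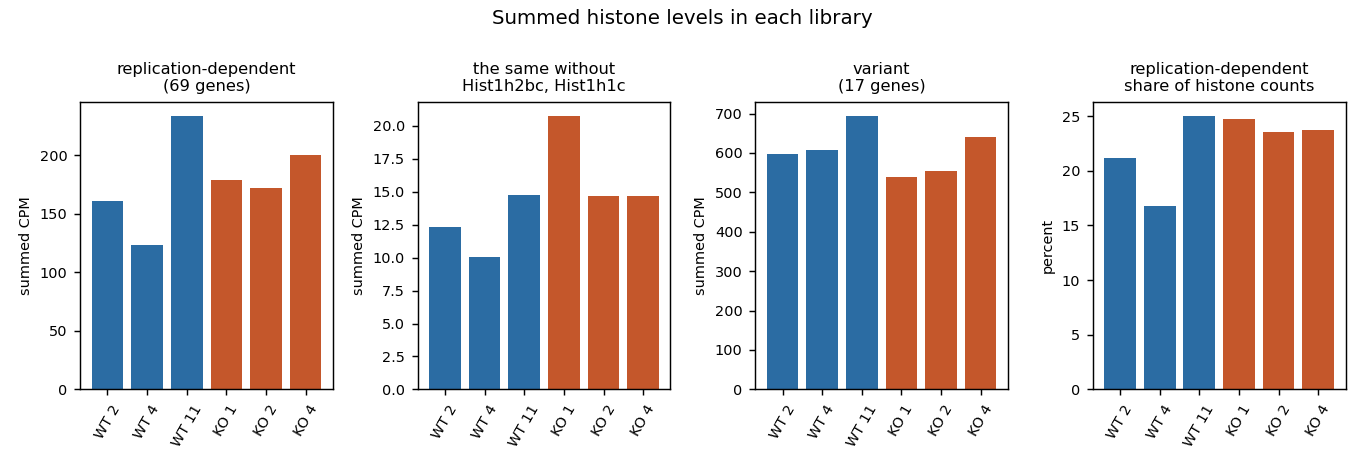
Summed level per library of the 69 replication-dependent genes, of the same without Hist1h2bc and Hist1h1c, and of the 17 variants (CPM after TMM scaling), and the replication-dependent share of all histone counts (percent). Bars are single libraries, wild type in blue and knockout in orange; the bars of the genotypes overlap in height in all 4 panels, with wild type 11 the highest wild type in each.

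Other RNAs that are known to lack a poly(A) tail or to stay in the nucleus were read beside the replication-dependent genes. Rn7sk, the RNA that holds the elongation factor P-TEFb inactive, was the 1 tested of 18 structural RNA genes in the table, 13 of which had no count, and it rose from 0.617, 0.587 and 0.743 CPM to 4.57, 2.20 and 2.17 CPM (2.18 ± 0.41 SE, adjusted p = 0.0104). The 149 snoRNA and scaRNA genes, 100 of them without a count, summed to 8.92 to 11.5 CPM in wild type and 20.3 to 45.4 CPM in knockout, and of 4 tested, Snord104 and Snora57 rose. Of 6 tested nuclear-retained long RNAs 4 rose, namely Neat1, Firre, Snhg11 and, named after its value was seen, Snhg14. These are 50% of the tested snoRNA and scaRNA genes and 66.7% of the tested long RNAs, and 8.76% of all tested genes rose. Malat1 and Kcnq1ot1 were not called. Malat1 stood at 96.1 to 150.5 CPM in wild type and 117 to 165 CPM in knockout (0.29 ± 0.22 SE, adjusted p = 0.382). The 67 replication-dependent genes without Hist1h2bc and Hist1h1c took 0.00108% to 0.00152% of the library in wild type and 0.00138% to 0.00173% in knockout. Whether these groups differ from each other in their change was not tested.

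Of 22 tested genes for the making and decay of the histone 3' end, 1 rose and 2 fell (13.6%, against 17% of all tested genes). Slbp, which binds the stem-loop, stood at 10.3 to 11.9 CPM in wild type and 6.82 to 10.8 CPM in knockout (-0.34 ± 0.22 SE, adjusted p = 0.292). Snrpb, a protein of the Sm ring shared by spliceosomal and U7 particles, fell by 1.81 on the log2 scale (adjusted p = 0.0113), Cstf2, a cleavage factor, fell by 1.10 (adjusted p = 0.0149), and Lsm1, of the mRNA decay ring, rose by 0.62 (adjusted p = 0.0465).

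Of 28 tested histone chaperones and exchange factors 4 rose and 6 fell (35.7%, against 17% of all tested genes), with a median log2 fold change of -0.04. Hira, which deposits H3.3, rose from 3.85, 3.89 and 4.18 CPM to 12.5, 13.6 and 8.90 CPM (1.55 ± 0.23 SE, adjusted p = 0.00515). Supt16, a subunit of the FACT complex that handles H2A and H2B, fell by 1.68 (adjusted p = 0.00487), and Dek, a chromatin protein that binds H3.3, fell by 1.54 (adjusted p = 0.00693). The rest of the called genes were named after their values were seen. Those that rose were Hjurp at 0.99, Asf1a at 0.89 and Vps72, which loads H2A.Z, at 0.78. Those that fell were Ssrp1, the other FACT subunit, at -1.11, Rbbp4 at -1.56, Rbbp7 at -1.02 and Chaf1a at -1.88. Chaf1a belongs to the chaperone that works at replication forks. It had few counts, 15, 13 and 18 in the wild-type livers and 2, 4 and 4 in the knockout livers. These knockout counts lay around the floor, so the size of the Chaf1a fall is uncertain.

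Genes of S phase and proliferation gave 0 that rose and 1 that fell of 27 tested (3.70%, against 17% of all tested genes). Their median log2 fold change was 0.12, and that of all tested genes was 0.01. The gene that fell was Pcna, the sliding clamp of replication (-0.85 ± 0.24 SE, adjusted p = 0.0382). The 6 markers of proliferating cells are all part of this list as well. Of 5 tested, 0 were called by edgeR, all 5 had a log2 fold change above 0, and the median was 0.61. Their sums were 5.17 to 9.75 CPM in wild type and 5.29 to 14.4 CPM in knockout, with overlap. Cenpa, the centromeric H3 that the names do not cover, stood at 3.95 to 5.27 CPM in wild type and 3.85 to 5.63 CPM in knockout (-0.06, adjusted p = 0.897).

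Sums of lymphocyte and neutrophil markers were higher in knockout, while those of erythroid and Kupffer cell markers overlapped. Over all tested genes 8.76% rose and 8.29% fell. Of 5 tested lymphocyte markers 4 rose, and the list of 6, with none at 0, summed to 3.47 to 5.20 CPM in wild type and 10.2 to 17.6 CPM in knockout. The 4 were Cd79a, Trbc2, Ms4a1 and, named after its value was seen, Nkg7. Both tested neutrophil markers, S100a8 and S100a9, rose, and the list of 5 summed to 1.38 to 1.92 and 4.15 to 9.77 CPM. Of 5 erythroid markers Hba-a2 rose and Alas2 fell, with sums of 300.2 to 505 CPM and 362 to 835 CPM. Of 5 Kupffer cell markers 0 were called, with sums of 147 to 229 CPM and 108 to 239 CPM, and of 5 hepatocyte markers Serpina1c rose and Cps1 fell. The part of these cells in the levels of the histone genes was not tested.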

How the data were processed

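RNA of 6 mouse livers was measured by sequencing. The authors deposited 1 table of raw counts per gene, whole numbers with no normalization. Per the submitters' processing notes they used mm10. The sources used here do not give the aligner, counter, annotation, strandedness or handling of multi-mapping reads. Numbers of libraries are those of the labels. P-values rest on the spread among the 3 livers of a genotype. Libraries of 1 genotype differed by more than sampling noise (chi-square per degree of freedom 21.0 to 171) and were counted separately. Counting floors cover counting error only, as reads carry no molecular identifiers.

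Counts were fitted with edgeR 4.0.16 in R 4.3.3 (filterByExpr, TMM, quasi-likelihood F test, two-sided, no covariate), with Benjamini-Hochberg adjustment over all 13304 genes tested. The method was tested on simulated data with 100 genes changed 2-fold and 100 changed 4-fold. It recovered 36% and 88% of these, and 13 of its 137 calls were false. A gene without a call may thus still differ. Far fewer genes were changed in the simulation than the 2268 called in the data, so its rates need not hold there. SE is |log2 fold change| over the root of F. Sums use all members, tested or not. Alternatives used DESeq2 1.42.0, limma 3.58.1, other scalings, filters and covariates, and left out libraries. All 91 members were found in GENCODE release M21 (GRCm38), which gave positions, transcripts and shared 50-base words. It held 54165 of the 54232 identifiers.

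Values per library are given for Rtn4, each member called and each member with a mean of at least 5 CPM in 1 genotype, and for Hist1h4h, Hist3h2a, Rn7sk and Hira, chosen after their values were seen. For other lists up to 3 called genes were named by smallest p. Slbp, Cenpa, Malat1 and Kcnq1ot1 were added. A marker gene is not reported here and was left out of its list. The members and lists were chosen with earlier results of these data known.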

Additional observations from a re-analysis of the deposited data

How the results depend on the processing

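In all, 2268 genes were called. The count fell to 0 with the mitochondrial share as a covariate and to 25 with knockout 4 alone, and it ran from 630 (without wild type 4) to 4046 (without knockout 4) when 1 library was left out. It was 827 without wild type 2, 804 without knockout 1 and 979 without knockout 2. With library totals 690 rose and 1566 fell, against 1165 and 1103 with TMM, and with length and GC trends removed 1052 rose and 1216 fell.

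Replication-dependent calls, 0 in the reported fit, numbered 1 with DESeq2 (Hist1h4h), 2 with no filter on low counts (Hist1h4h higher and Hist1h1c lower), and 0 to 1 when 1 library was left out, the 1 being Hist3h2a without knockout 4. Variant calls, 3 in the reported fit, numbered 0 with the mitochondrial covariate, 0 with knockout 4 alone, and 1 to 3 when 1 library was left out, with 1 without wild type 2, wild type 4 or knockout 1. H3f3a turned from -1.47 to 0.028 with the mitochondrial covariate. H2afz was called in 15 of the 17 fits with another setting, H3f3a in 10 and H2afj in 10. The causes were not tested.

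The summed level of replication-dependent genes, 0.09 on the log2 scale, was -0.50 without Hist1h2bc and ran from -0.11 to 0.37 when 1 library was left out, lowest without wild type 4 and highest without wild type 11. That of variants, -0.13, was -0.30 with library totals, 0.017 with knockout 4 alone and -0.21 to -0.06 when 1 library was left out. The share of replication-dependent counts, 3.02 points higher in knockout, was -1.47 points without Hist1h2bc and 0.895 to 5.05 points when 1 library was left out, lowest without wild type 4.

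Only the numbers 2 and 4 occur in both genotypes, and the labels do not say that a number marks a litter. Deviations of the same-numbered libraries had correlations of -0.05 and 0.06. With the replicate number as a block 1686 genes were called, among them 0 replication-dependent genes and 2 variants, H2afj being the one without a call (adjusted p = 0.0933). The 60 untested replication-dependent genes had at most 19 counts in a library, and differences in them were not detectable at these counts.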
